A study of Mus musculus with 29 samples.

Results

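The 10 genes described here encode transcription regulators that decide whether a cell becomes a fat cell and whether that cell can become beige. They are Prdm16, Ebf2, Zfp516, Irf4, Ebf1, Cebpa, Cebpb, Cebpd, Tle3 and Zfp423, and they were found by symbol among the 17536 genes present in both deposited expression tables. All 10 were measured, and all 10 reached 1 FPKM (fragments per length of transcript and per mapped fragments of the library) in at least 3 mice. Expression was measured by RNA sequencing of frozen subcutaneous white fat from female and male mice that were wild type (WT) or carried a knockout (KO) of Ncoa1, the gene of a nuclear receptor coactivator. The β3-adrenergic agonist CL316,243 (CL) was injected intraperitoneally for 7 days at 0.5 mg/kg, and controls received NaCl (saline). Under saline there were 4 wild-type males, 3 knockout males, 2 wild-type females and 3 knockout females. Under CL there were 4, 4, 4 and 3. Columns of the same name were counted as 1 mouse. The labels give no age or strain, and neither the exons removed from Ncoa1 nor any limit of the deletion to some tissues. The labels do not state that each sample came from a separate animal. The p-values then measure only the spread between these samples, which may be technical.

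White adipocytes store fat, and beige adipocytes are cells within white depots that gain mitochondria and the uncoupling protein UCP1 under cold or β-adrenergic signals. PRDM16, a zinc finger coregulator, drives brown and beige genes, EBF2 opens chromatin at those genes, and ZFP516 and IRF4 act with PRDM16 or with the coactivator PGC-1α on the thermogenic programme. C/EBPβ and C/EBPδ start adipocyte differentiation, C/EBPα and EBF1 carry it on and maintain it, ZFP423 commits precursors to the fat lineage and holds back the thermogenic programme in white adipocytes, and TLE3 favours white over brown genes by competing with PRDM16 for PPARγ. Several members also work outside adipocytes, EBF1 and IRF4 in B cells and plasma cells, IRF4 and C/EBPβ in macrophages, and EBF2 in adipocyte precursors.

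Sequence upstream of the genes is shown for the 3 members that fell with CL in wild-type males (Prdm16, Ebf1 and Tle3) and for Cebpb, which was lower in CL knockout females and whose window held the most matches, as a view of the DNA at their transcription starts. RefSeq (GRCm38.p6) windows of 250 bases before to 50 bases after a start were available for 7 of the 10 members, 9 windows in all. Entries for Ebf2, Zfp516 and Cebpd were not in the table used. The windows were searched on both strands for TTGCNNAA (a C/EBP site), CCCNNGGG (the core of an EBF site), TGACGTCA (a cAMP response element, CRE), TGACG (its core, which TGACGTCA also contains), GAAANNGAA (an interferon regulatory factor site) and AGGTCA (a nuclear receptor site). Of 32851 windows of all genes, these letters occurred in 10.8%, 13.7%, 1.79%, 20.8%, 8.56% and 16.3%. Capitals mark the matches in the sequences, given 5′ to 3′ on the strand of the gene.
Prdm16, chr4:154636824-154637123, minus strand: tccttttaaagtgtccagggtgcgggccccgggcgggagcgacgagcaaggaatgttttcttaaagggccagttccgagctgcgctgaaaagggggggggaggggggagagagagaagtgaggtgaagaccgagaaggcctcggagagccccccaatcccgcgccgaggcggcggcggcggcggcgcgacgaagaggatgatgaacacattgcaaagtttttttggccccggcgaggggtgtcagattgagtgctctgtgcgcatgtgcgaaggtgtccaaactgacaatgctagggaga
Ebf1, chr11:44617850-44618149, plus strand: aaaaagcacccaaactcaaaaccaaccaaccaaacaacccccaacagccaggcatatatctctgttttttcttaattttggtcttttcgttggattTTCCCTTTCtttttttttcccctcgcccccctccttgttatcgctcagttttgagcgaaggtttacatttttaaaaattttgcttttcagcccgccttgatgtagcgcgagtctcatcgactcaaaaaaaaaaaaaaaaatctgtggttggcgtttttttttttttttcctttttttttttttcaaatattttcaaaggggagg
Tle3, chr9:61372116-61372415, plus strand: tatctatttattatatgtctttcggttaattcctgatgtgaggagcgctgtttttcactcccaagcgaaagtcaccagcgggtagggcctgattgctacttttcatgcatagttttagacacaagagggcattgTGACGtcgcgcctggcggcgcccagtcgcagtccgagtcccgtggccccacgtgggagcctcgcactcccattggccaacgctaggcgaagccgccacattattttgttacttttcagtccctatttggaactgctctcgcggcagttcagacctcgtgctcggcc
Cebpb, chr2:167688665-167688964, plus strand: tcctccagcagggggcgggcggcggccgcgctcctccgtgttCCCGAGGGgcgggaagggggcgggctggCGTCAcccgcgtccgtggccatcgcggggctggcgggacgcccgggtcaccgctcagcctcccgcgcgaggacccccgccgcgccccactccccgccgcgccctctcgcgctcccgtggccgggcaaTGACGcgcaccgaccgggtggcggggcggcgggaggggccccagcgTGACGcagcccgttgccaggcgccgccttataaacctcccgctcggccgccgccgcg
The Cebpb window held 3 copies of TGACG, starting at -180, -53 and -7 from the transcription start, and 1 CCCNNGGG at -208. The Tle3 window held 1 TGACG at -116, and the printed Ebf1 window 1 GAAANNGAA at -154, while the window of a second Ebf1 start held 1 TGACG at +23. Of the 2 Zfp423 windows, 1 held TTGCNNAA at -131 and +23, and the other CCCNNGGG at -28 and AGGTCA at -34. None of the searched letters occurred in the windows of Prdm16, Irf4 and Cebpa. Base composition also set the members apart, with 36.7% G and C in the printed Ebf1 window but 53.0% in that of its other start, 61.0% in that of Prdm16 and 80.7% in that of Cebpb, against a median of 52.7% over all windows.

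Levels per transcript length differed widely between members. The median over the 29 libraries was 372 FPKM for Cebpa, 119 for Cebpb, 27.7 for Ebf1, 20.2 for Cebpd, 17.7 for Tle3, 9.24 for Zfp423, 5.08 for Ebf2, 4.89 for Irf4 and 1.84 for both Prdm16 and Zfp516. The ranges of neighbours in this order overlapped, apart from Cebpb (58.14 or more) and Ebf1 (51.92 or less). The beige coregulators Prdm16 (0.92 to 3.09 FPKM) and Zfp516 (1.13 to 3.02) were thus the scarcest members, and Cebpa (141.87 to 520.67) the most abundant. Irf4 varied most, by a ratio of 11.3 between its highest and lowest library (2.13 to 24.12), followed by Cebpd at 8.24. Zfp516 varied least, by 2.67. Prdm16 reached 1 FPKM in 26 of 27 mice and the other 9 members in all 27.

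**Figure D1:**
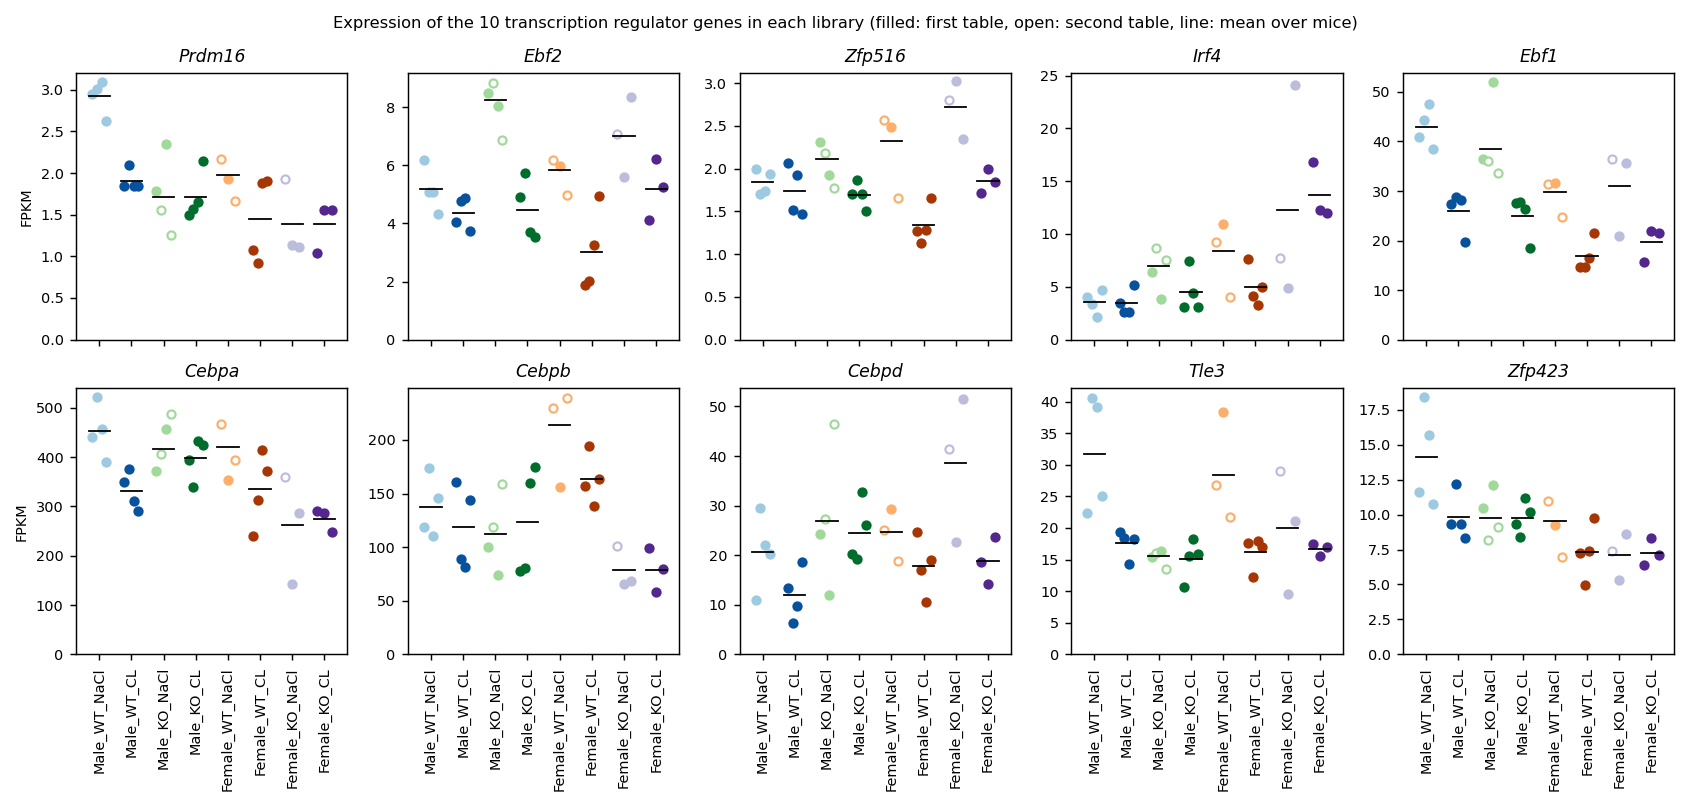
FPKM (vertical axes, from 0) of the 10 genes in each library, by sex, genotype and treatment, with filled points for the first table, open points for the second and a line for the mean over mice. Prdm16 lay at 2.63 to 3.09 in the 4 saline wild-type males and at 2.35 or less in every other library, and Irf4 reached 24.12 in 1 saline knockout female.

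The libraries carry other signals that bear on these genes. Ncoa1 itself stood at 1.47 to 2.9 FPKM in the knockout libraries and at 4.93 to 9.16 in the wild-type libraries, without overlap. Summed values of 4 Y-linked genes matched the labelled sex in all 29 libraries. The 10 mature adipocyte markers summed to 24970 FPKM or more in every library. The 29 columns were counted as 27 mice. Saline wild-type female replicate 3 and saline knockout male replicate 3 have columns of the same name in both tables, counted as 1 mouse each. The 2 sample records without a column belong to these same groups, so whether a shared name is 1 mouse or 2 cannot be told. Over all genes the columns of a shared name lay 0.472 and 0.613 apart (root mean square difference in log2), and 37 pairs of different mice of a group lay 0.196 to 1.10 apart, a range that includes both. Skeletal muscle genes were high in 4 mice, with mean log2 values of 5.08 (CL knockout male 4) to 11.38 (saline knockout female 2) against 3.48 or less in the rest. The milk protein gene Csn2 read 113.8 FPKM in saline wild-type female 1 and 14860 in the second-table column of replicate 3, against 2.09 or less in every other library. In whole tissue, fewer cells of a type and less RNA per cell cannot be told apart.

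In wild-type males, CL was followed by lower Prdm16, Ebf1 and Tle3, which joins a beige driver, a differentiation factor and a corepressor of brown genes. Differences here and below are changes in log2(FPKM + 1) ± SE, with Benjamini-Hochberg adjusted p-values over 13174 genes from 1 limma fit of all groups, and a gene rose or fell where its adjusted p was below 0.05. For scarce genes such as Prdm16 this scale understates the ratio, because of the added 1. Of the 10 members, 3 fell and 0 rose, while 5.92% of all genes fell and 5.35% rose. All 10 estimates were below 0, with a median of -0.44 against -0.05 over all genes, and 6 members had an unadjusted p under 0.05.

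Prdm16 (gene ID 70673, chromosome 4, 154316122 to 154637360 in GRCm38.p6, the build of all positions here) read 2.95, 3.01, 3.09 and 2.63 FPKM under saline and 1.85, 2.10, 1.84 and 1.84 under CL. Every CL value was below every saline value, at a mean of 1.91 ± 0.13 against 2.92 ± 0.20 (SD, n = 4 each). The gene fell by 0.43 ± 0.13 (adjusted p = 0.037). Leaving out any CL mouse or saline mouse 1, 2 or 3 raised the adjusted p to 0.051 to 0.096.

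Ebf1 (gene ID 13591, chromosome 11, 44618100 to 45008096), the regulator of adipocyte differentiation and of the B lineage, read 40.88, 44.34, 47.59 and 38.53 FPKM under saline and 27.39, 28.72, 28.20 and 19.72 under CL. The groups did not overlap, and the lowest value belonged to CL mouse 4, which is high in muscle genes. Ebf1 fell by 0.71 ± 0.17 (adjusted p = 0.009), by 0.59 (adjusted p = 0.0069) without the mice high in muscle genes, and the call was kept in all 37 alternative analyses (adjusted p 0.0027 to 0.044). Saline mouse 3 had the highest Ebf1 of its group (47.59) with 0.21 FPKM of Cd79a and 0.07 of Pax5, which are defining B cell genes. Saline mouse 4 had the lowest Ebf1 (38.53) with 254.2 and 30.7. Cd79a read 153.79 and 41.56 in saline mice 1 and 2, and 180.54, 63.86, 61.33 and 91.99 under CL. The part of B cell genes in the Ebf1 difference was not tested.

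Tle3 (gene ID 21887, chromosome 9, 61372326 to 61418497), the corepressor that favours white genes, read 22.43, 40.58, 39.08 and 25.03 FPKM under saline and 19.37, 18.41, 14.30 and 18.22 under CL. The groups did not overlap, although the saline mice fell into a higher and a lower pair. Tle3 fell by 0.78 ± 0.22 (adjusted p = 0.025). The call was lost without CL mouse 3 or 4 (0.079 and 0.054) or saline mouse 2 or 3 (0.1 and 0.095).

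The other 7 members did not pass in wild-type males. Zfp423, the lineage commitment factor, read 11.59, 18.37, 15.72 and 10.73 FPKM under saline and 9.30, 12.21, 9.34 and 8.33 under CL, with CL mouse 2 above the lowest 2 saline values. Cebpa went from 452 ± 53.8 FPKM to 331 ± 37.9 (SD, n = 4 each) without overlap of the mice. Cebpd, an early inducer of differentiation, went from 20.7 ± 7.66 to 12.0 ± 5.33 FPKM, and here the groups overlapped. Ebf2 stood at 5.17 ± 0.76 and 4.36 ± 0.55 FPKM, Zfp516 at 1.84 ± 0.14 and 1.74 ± 0.30, and Irf4 at 3.55 ± 1.08 and 3.46 ± 1.23. These 3 beige regulators therefore lay close together in the 2 groups, while Ucp1 went from 1.36 ± 1.42 to 347 ± 146 FPKM (7.28 ± 0.55, adjusted p = 4.6e-08).

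In the other 3 groups no member passed the test for CL, at backgrounds of 7.25% of all genes in knockout males, 3.56% in wild-type females and 7.42% in knockout females. Unadjusted p-values were under 0.05 for 2, 3 and 3 members in the same order. All 5 second-table columns are saline columns of these 3 groups, so the table covariate enters these CL differences. In wild-type females the 2 saline mice already had high Ucp1, at 137.25 FPKM in mouse 1 and 24.86 and 223.9 in the columns of mouse 3. Saline wild-type males had 0.29 to 3.41, and CL wild-type females 139.19 to 489.72. Ucp1 itself did not pass for CL in wild-type females (2.18 ± 0.84, adjusted p = 0.13), while Elovl3, Cidea and Cox8b did. Ebf1 had estimates below 0 in all 4 groups. In knockout males it read 36.50 and 36.05 FPKM in saline mice 1 and 2, 51.92 and 33.56 in the 2 columns of mouse 3, and 27.48, 27.70, 26.33 and 18.39 under CL. Every CL value lay below every saline value, with a difference of -0.49 ± 0.21 (adjusted p = 0.18). In wild-type females Ebf1 read 31.44 in saline mouse 1, 31.60 and 24.68 in the columns of mouse 3, and 14.62, 14.67, 16.42 and 21.48 under CL, again without overlap (-0.62 ± 0.26, adjusted p = 0.17). In knockout females it read 36.50, 20.93 and 35.56 under saline and 15.62, 21.83 and 21.44 under CL. Here saline mouse 2, the one richest in muscle RNA, lay below 2 CL mice (-0.53 ± 0.21, adjusted p = 0.13).

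Ebf2 (gene ID 13592, chromosome 14, 67233292 to 67430952), the factor that opens brown fat chromatin, gave its largest CL differences in knockout males and wild-type females. In knockout males it read 8.49 and 8.83 FPKM in saline mice 1 and 2, 8.06 and 6.87 in the columns of mouse 3, and 4.92, 5.74, 3.72 and 3.53 under CL. No CL value reached a saline value, yet the difference of -0.74 ± 0.24 did not pass (adjusted p = 0.061). Ebf2 and Ebf1 both passed there when the table was not a covariate or when each column was taken as a mouse. In these settings 1580 of 13174 and 1400 of 13229 genes passed, against 955 in the main fit. In wild-type females it read 6.18 in saline mouse 1, 5.99 and 4.97 in the columns of mouse 3, and 1.88, 2.03, 3.26 and 4.93 under CL (-0.77 ± 0.29, adjusted p = 0.13). Saline and CL values all but met there, at 4.97 and 4.93.

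Zfp516, which acts with PRDM16 on Ucp1, had CL estimates below 0 in both female groups, neither of which passed. Wild-type females read 2.57 in saline mouse 1, 2.48 and 1.66 in the columns of mouse 3, and 1.27, 1.13, 1.28 and 1.66 under CL (-0.47 ± 0.15, adjusted p = 0.089). Knockout females read 2.80, 3.02 and 2.35 under saline and 1.71, 2.00 and 1.84 under CL (-0.37 ± 0.12, adjusted p = 0.075). The knockout females did not overlap, and the wild-type females met at 1.66. The first table alone leaves 1 saline mouse against 4 in wild-type females, so no call is given there. Without the table covariate, or with each column as a mouse, Ebf2, Zfp516 and Ebf1 passed in wild-type females. In these settings 1551 of 13174 and 2080 of 13229 genes passed, against 469 in the main fit. Prdm16 had CL estimates of 0.12 ± 0.16 in knockout males, 0.08 ± 0.16 in knockout females and -0.14 ± 0.20 in wild-type females, and none passed. Those of Tle3 were 0.19 ± 0.28, 0.05 ± 0.27 and -0.38 ± 0.34 in the same order, and none passed. Mean Tle3, without the table covariate, went from 15.54 to 15.11 FPKM in knockout males and from 19.92 to 16.68 in knockout females. In wild-type females Tle3 did not overlap, at 21.75 FPKM or more in every saline column and 17.94 or less in every CL mouse.

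Averaged over the 4 groups of sex and genotype, a contrast added after the values were seen, CL lowered 3 members and raised 0, at backgrounds of 14.7% of all genes lower and 10.4% higher. Ebf1 fell by 0.59 ± 0.13 (adjusted p = 0.002), Ebf2 by 0.52 ± 0.14 (0.011) and Zfp516 by 0.27 ± 0.08 (0.012). Ebf1 kept its call in all 36 alternatives, some of which leave 1 saline wild-type female. Without saline knockout male 1, Ebf2 stood at -0.48 (adjusted p = 0.061) and Zfp516 at -0.21 (0.1), and without all 4 mice high in muscle genes at -0.54 (0.07) and -0.12 (0.44). Cebpa (0.04 ± 0.14) and Cebpb (0.04 ± 0.19) had average estimates near 0, with 95% intervals of -0.25 to 0.33 and -0.35 to 0.43. These estimates include the table covariate. Plain means of Cebpa went from 452 to 331.4 FPKM in wild-type males and from 420.3 to 334.9 in wild-type females. In knockout males they went from 416.8 to 397.6 and in knockout females from 262.5 to 275.1. Macrophage and precursor genes moved with Ebf1 and Ebf2. Of the 16 markers of adipocyte precursors and stroma 11 fell on average, such as the collagen gene Col3a1 (-1.27 ± 0.18), and of 14 macrophage and dendritic cell markers 11 fell, such as Adgre1 (-1.23 ± 0.18). Their part in the differences of Ebf1 and Ebf2 was not tested.

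**Figure D2:**
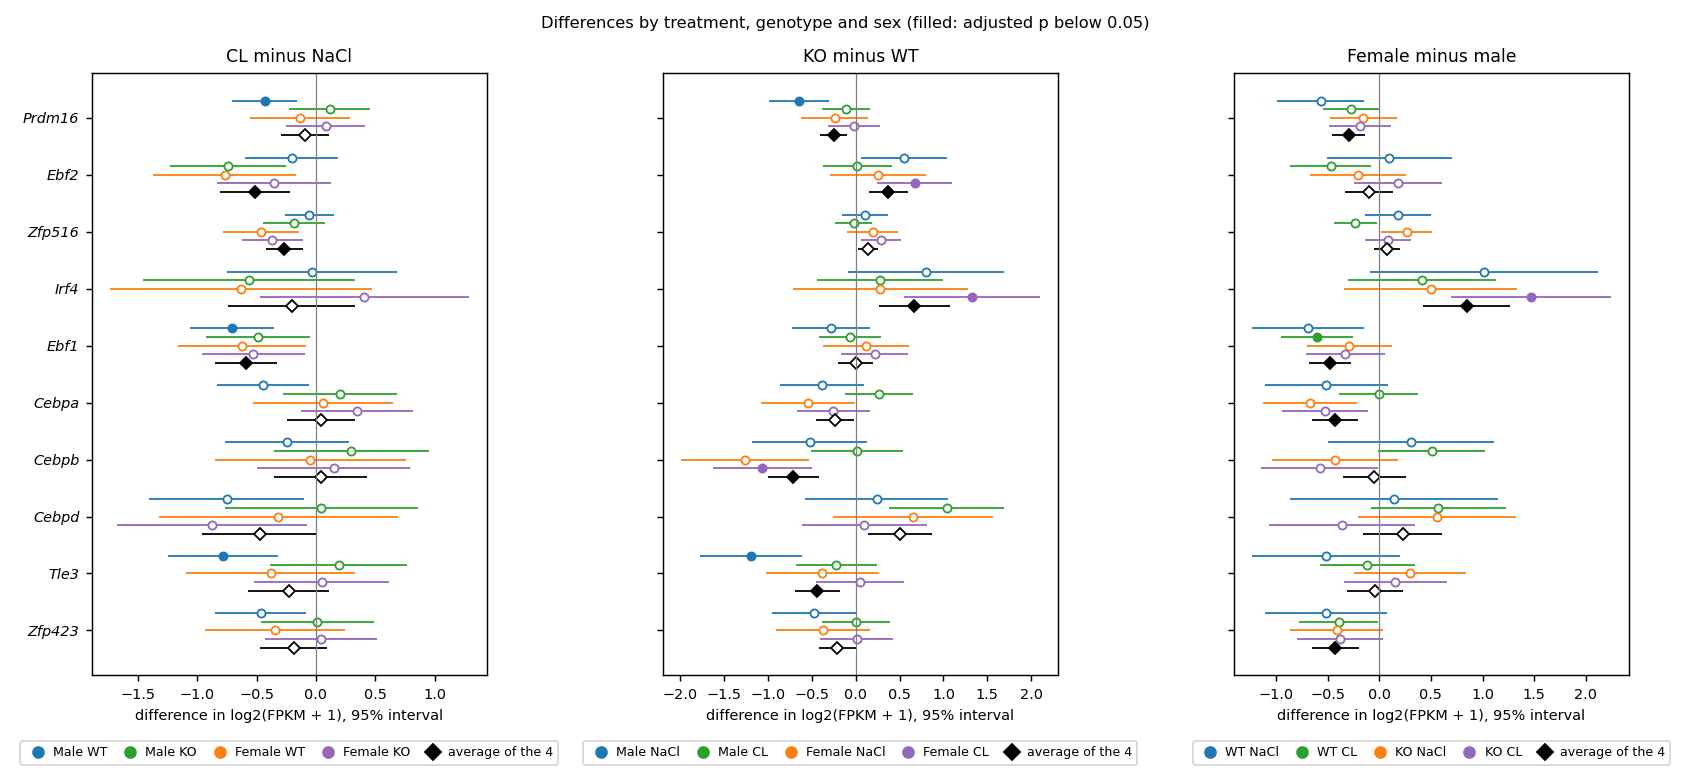
Differences in log2(FPKM + 1) with 95% intervals (horizontal axes) for CL against saline, for knockouts against wild types and for females against males in each pair of groups and on average, filled where the adjusted p was below 0.05. Ebf1 lies left of 0 in all 4 CL comparisons and in all 4 sex comparisons, and Cebpb lies at -1.26 and -1.07 in the 2 comparisons of knockout with wild-type females.

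Between knockouts and wild types, Tle3 and Prdm16 passed the test in saline males and Cebpb, Irf4 and Ebf2 in CL females. In saline males, 2 of the 10 members were lower in knockouts and 0 higher, where 4.16% of all genes were lower and 3.18% higher. Tle3 read 22.43, 40.58, 39.08 and 25.03 FPKM in wild types, 15.48 and 16.12 in knockout mice 1 and 2, and 16.43 and 13.59 in the columns of mouse 3. No knockout value reached a wild-type value, and the spread among knockouts (SD 0.56, n = 3) was smaller than among wild types (9.38, n = 4). The knockout SD takes the mean of the 2 columns of mouse 3, which narrows it. Tle3 fell by 1.19 ± 0.28 (adjusted p = 0.013). Prdm16 read 2.95, 3.01, 3.09 and 2.63 in wild types, 1.79 and 1.56 in knockout mice 1 and 2, and 2.35 and 1.26 in the columns of mouse 3. It was lower in every knockout column and fell by 0.65 ± 0.16 (adjusted p = 0.02). These saline wild-type males are the same mice as in the CL comparison, so the drops of Prdm16 and Tle3 in both share their controls.

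The table of origin bears on these 2 calls, because 2 of the 4 knockout columns come from the second table. Within the first table alone Tle3 stood at -0.91 (adjusted p = 0.1) and Prdm16 at -0.36 (0.34). The second table holds no wild-type male, so no value could be had within it. Without saline knockout female 1, another second-table mouse, Tle3 stood at -0.95 (0.12) and Prdm16 at -0.52 (0.16). Without the mice high in muscle genes they stood at -1.16 (0.066) and -0.82 (0.062). That setting does not level the muscle signal between these genotypes. Mean log2 of muscle genes was 3.48 in knockout mouse 2 and 3.56 and 1.79 in the columns of mouse 3. In the saline wild-type males it was 1.03 to 1.16. The part of muscle RNA in the 2 differences was not tested. Ebf2, at 8.26 ± 0.71 FPKM in these knockouts (n = 3) against 5.17 ± 0.76 in wild types (n = 4), did not pass (0.56 ± 0.24, adjusted p = 0.14), although no knockout column overlapped the wild types. Of the 16 precursor and stroma markers 6 were higher in the same comparison, and of 14 macrophage markers 6.

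In males under CL no member passed at a background of 1.94% of all genes, and 1 had an unadjusted p under 0.05. Cebpd read 13.45, 6.24, 9.74 and 18.69 FPKM in wild types and 20.19, 19.19, 32.73 and 26.05 in knockouts. All 4 knockouts lay above all 4 wild types, with a difference of 1.04 ± 0.31 (adjusted p = 0.1). Neither Prdm16 nor Tle3 passed here. Prdm16 read 1.85, 2.10, 1.84 and 1.84 in wild types and 1.49, 1.57, 1.65 and 2.14 in knockouts, while Ucp1 stood at 347 ± 146 and 12.6 ± 7.61 FPKM (-4.72 ± 0.55, adjusted p = 3.6e-05). The Prdm16 difference of -0.11 had a 95% interval of -0.38 to 0.17.

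In females under CL, 3 members passed, 2 higher and 1 lower in knockouts, at backgrounds of 9.01% of all genes higher and 3.63% lower. Cebpb (gene ID 12608, chromosome 2, 167688915 to 167690432), the early differentiation factor, read 156.55, 194.45, 138.46 and 163.67 FPKM in wild types and 98.82, 58.14 and 79.20 in knockouts. Every knockout lay below every wild type, and Cebpb fell by 1.07 ± 0.27 (adjusted p = 0.017). The call was lost without CL knockout female 2 or 3 (0.086 and 0.064) or CL wild-type female 2 (0.051).

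Irf4 (gene ID 16364, chromosome 13, 30749233 to 30766981), which works with PGC-1α in thermogenic fat and also in macrophages and plasma cells, read 7.60, 4.16, 3.29 and 4.97 FPKM in wild types and 16.81, 12.27 and 11.94 in knockouts. The groups did not overlap, and Irf4 rose by 1.32 ± 0.37 (adjusted p = 0.026). Leaving out any of the 3 knockouts (0.087, 0.061 and 0.074) or wild-type female 2 or 3 (0.064 and 0.079) ended the call. Cd79a, a defining B cell gene, read 4.12, 6.66 and 92.15 FPKM in these knockouts against 32.18 to 198.75 in the wild types, so knockouts 1 and 2 lay below the wild types and knockout 3 among them. Macrophage genes were higher, with 9 of 14 higher in these knockouts and sums of 1055 to 1760 FPKM against 644.6 to 874.4. The part of B cell and macrophage genes in the Irf4 difference was not tested.

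Ebf2 read 1.88, 2.03, 3.26 and 4.93 FPKM in CL wild-type females and 4.12, 6.21 and 5.25 in knockouts. Wild-type mouse 4 lay above the lowest knockout, so these groups overlapped. Ebf2 rose by 0.67 ± 0.20 (adjusted p = 0.036), a call lost without knockout 2 or 3 (0.14 and 0.12) or wild type 1, 2 or 3 (0.084, 0.11 and 0.058). Precursor and stroma markers rose in 9 of 16 cases, and their sum was 2015 to 2658 FPKM in knockouts against 895.2 to 1471 in wild types. Their part in the Ebf2 difference was not tested. Thermogenic genes ran the other way, with 0 of 17 higher and 7 lower in these knockouts.

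In saline females no member passed at a background of 0.509% of all genes, and 2 had an unadjusted p under 0.05. Cebpb read 230.04 FPKM in wild-type mouse 1, 156.54 and 239.22 in the columns of mouse 3, and 100.81, 65.56 and 68.66 in knockouts. All knockouts lay below all wild-type columns, as under CL, with a difference of -1.26 ± 0.35 (adjusted p = 0.14). Only 2 wild-type mice stand behind it.

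**Figure D3:**
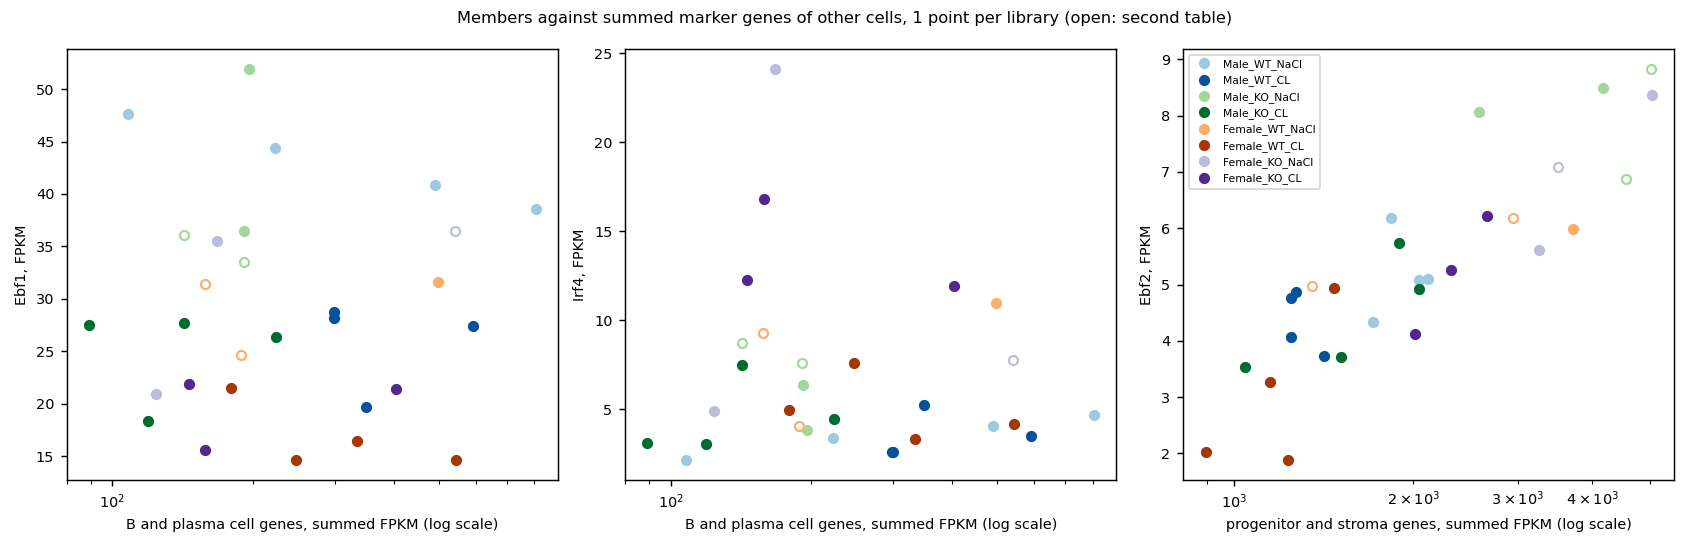
Ebf1 and Irf4 in FPKM against the summed FPKM of 13 B and plasma cell genes, and Ebf2 against the summed FPKM of 16 precursor and stroma genes (logarithmic horizontal axes), with 1 point per library and open points for the second table. Irf4 was highest (24.12) in a saline knockout female, and the libraries with Ebf2 above 8 FPKM had precursor sums of 2581 or more.

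Averaged over sex and treatment, a contrast also added after the values were seen, 2 members were higher and 3 lower in knockouts, at backgrounds of 9.12% and 8.22% of all genes. Cebpb fell by 0.71 ± 0.14 (adjusted p = 0.0013) and kept its call in all 36 alternatives, some of which leave 1 saline wild-type female. In males, mean Cebpb was 137.1 FPKM in wild types and 112.1 in knockouts under saline, and 118.8 and 123.4 under CL. The genotypes overlapped in males under both treatments, unlike in females. Tle3 fell by 0.44 ± 0.13 (0.019) and Prdm16 by 0.25 ± 0.07 (0.021). Irf4 rose by 0.67 ± 0.19 (0.019) and Ebf2 by 0.37 ± 0.11 (0.017). Ebf1 had an average difference of -0.001 with a 95% interval of -0.20 to 0.20. The first table alone leaves 1 saline wild-type female, so no call is given there. In that setting Prdm16 stood at -0.24, Ebf2 at 0.36 and Irf4 at 0.51. Without saline wild-type female 3 the calls of Ebf2 (0.054), Irf4 (0.069) and Tle3 (0.073) were lost, and without saline wild-type female 1 or saline knockout male 2 that of Prdm16 (0.057 and 0.051).

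Females and males differed most in Ebf1, Irf4, Prdm16, Cebpa and Zfp423. On average over genotype and treatment, the last contrast added after the values were seen, 1 member was higher and 4 lower in females, at backgrounds of 13.3% and 11.1% of all genes. Ebf1 fell by 0.48 ± 0.10 from males to females (adjusted p = 0.0013), Cebpa by 0.43 ± 0.11 (0.0061), Zfp423 by 0.43 ± 0.11 (0.0063) and Prdm16 by 0.30 ± 0.08 (0.0078). Irf4 was higher in females by 0.85 ± 0.20 (0.0038). All 5 calls held in all 36 alternatives, some of which leave 1 saline wild-type female.

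Single pairs of groups show the same members at varied strength. Under CL, wild-type females had Ebf1 at 14.62, 14.67, 16.42 and 21.48 FPKM and wild-type males at 27.39, 28.72, 28.20 and 19.72. Male mouse 4 fell within the female range, and Ebf1 was the 1 member to pass (-0.60 ± 0.17, adjusted p = 0.019), where 10.1% of all genes were lower and 7.81% higher. That call was lost without female 1 or 2 (0.054 and 0.061) or male 2 or 3 (0.062 and 0.065). Under CL, knockout females had Irf4 at 16.81, 12.27 and 11.94 FPKM and knockout males at 3.08, 7.46, 4.43 and 3.06. The sexes did not overlap (1.47 ± 0.37, adjusted p = 0.015), Irf4 alone passed where 8.43% of all genes were higher and 2.59% lower, and without female 1 the adjusted p was 0.063. In saline wild types and saline knockouts no member passed, at backgrounds of 3.34% and 7.77%, with 2 unadjusted p-values under 0.05 in each. The largest estimate among saline knockouts below 0 was that of Cebpa (-0.67 ± 0.22, adjusted p = 0.065).

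Other cell types also differed by sex. The 13 mammary epithelium genes summed to 286 FPKM or more in every female library and to 25.45 or less in every male library. Of 10 mature adipocyte markers 9 were lower in females on average, such as the perilipin genes Plin1 (-0.70 ± 0.12) and Plin4 (-0.96 ± 0.17). Of 19 adipocyte genes driven by C/EBPα and PPARγ 13 were lower, where 11.1% of all genes were lower. These 2 lists share genes such as Pnpla2, so they are not separate evidence. The part of these cell types and genes in the sex differences of Cebpa, Zfp423, Ebf1 and Prdm16 was not tested.

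Tests of whether 1 effect depended on another gave no member in any of 6 interactions. Of all genes, 0.0531% passed in genotype by treatment among males and 0.0228% among females, 0.0228% in sex by treatment among wild types and 0.0304% among knockouts, and 0.121% in sex by genotype under saline and 0.129% under CL. Unadjusted p-values under 0.05 came from 3 members in genotype by treatment among males, 0 among females, 1 in sex by treatment among wild types (Zfp516), 0 among knockouts, 0 in sex by genotype under saline and 3 under CL. In males the CL effect of Tle3 was 0.97 ± 0.36 higher in knockouts than in wild types (adjusted p = 0.3), that of Cebpa 0.65 ± 0.30 (0.39) and that of Prdm16 0.55 ± 0.21 (0.33). Under CL the knockout effect on Cebpb was 1.08 ± 0.37 lower in females than in males (adjusted p = 0.11). The calls of Prdm16 and Tle3 in wild-type males, and of Cebpb in females, are therefore not shown to be particular to those mice.

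**Figure D4:**
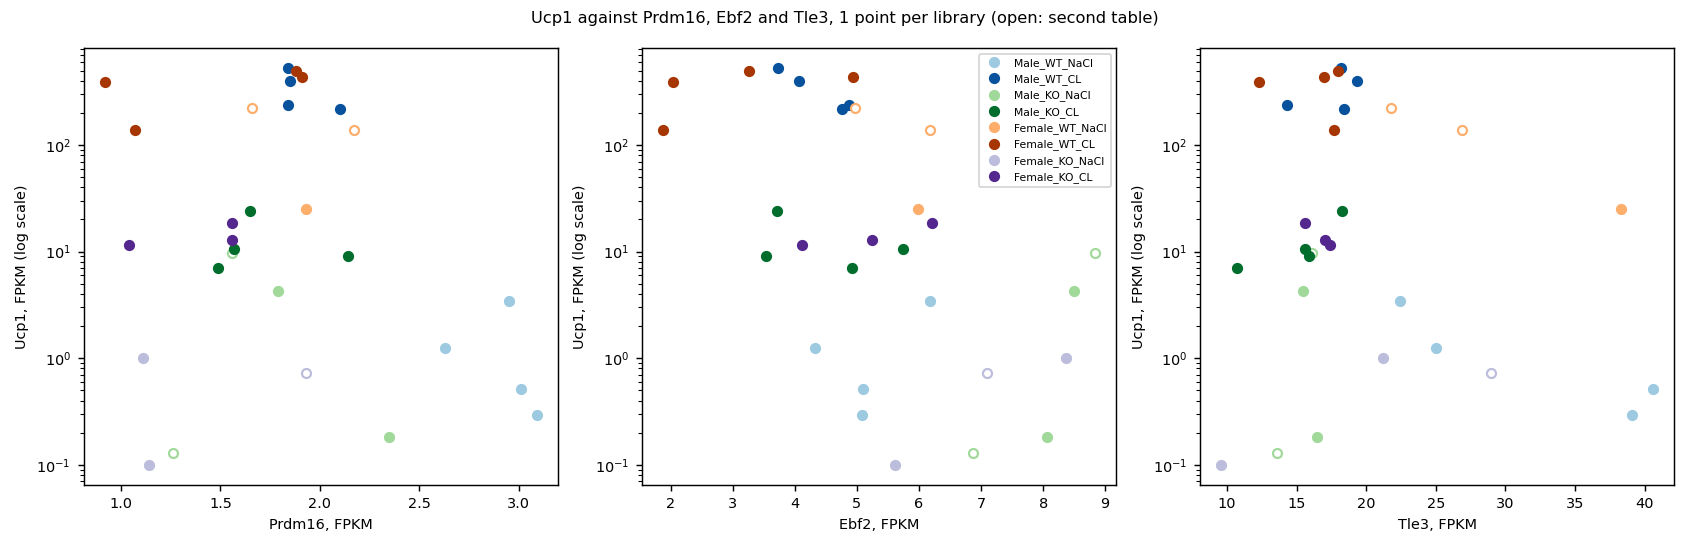
Ucp1 in FPKM (logarithmic vertical axis) against Prdm16, Ebf2 and Tle3 in FPKM, with 1 point per library and open points for the second table. The CL wild types lie at 139 FPKM of Ucp1 or more whatever their Prdm16 (0.92 to 2.10), and the 4 saline wild-type males with the most Prdm16 lie at 3.41 or less.

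Levels of the beige regulators and of Ucp1 did not run in parallel across groups. Prdm16 was highest in saline wild-type males (2.92 ± 0.20 FPKM, n = 4), where Ucp1 was 1.36 ± 1.42. CL knockout females had Prdm16 at 1.39 ± 0.30 (n = 3) and Ucp1 at 14.2 ± 3.68, and CL wild-type females had Prdm16 at 1.45 ± 0.52 (n = 4) and Ucp1 at 363 ± 155. Among the CL wild-type females, Prdm16 was lowest in mouse 2 (0.92) with Ucp1 at 386.58, while mouse 1 had 1.07 with Ucp1 at 139.19. Ebf2 was highest in saline knockout males (8.26 ± 0.71, n = 3), with Ucp1 at 4.71 ± 4.80. In saline wild-type females Ucp1 ran from 24.86 to 223.9 FPKM between the columns of mouse 3, and Prdm16 from 1.93 to 1.66.

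Genes that work with or under these factors were followed as lists, and some genes, such as Ppara and Ddit3, are counted in 2 of them. Of 17 tested thermogenic genes bound or driven by the beige factors, 11 rose and 1 fell with CL in wild-type males, with a median of 1.36 against -0.05 over all genes, including Elovl3, a fatty acid elongase (4.02 ± 0.37), Cox8b, a cytochrome oxidase subunit (2.68 ± 0.33), and Cidea, a lipid droplet protein (2.68 ± 0.33). On average in knockouts 1 was higher and 10 lower, at backgrounds of 9.12% and 8.22%, such as the proton channel gene Otop1 (-1.97 ± 0.15). Of 14 partners and cofactors of PRDM16, 0 rose and 2 fell with CL in wild-type males, where 5.35% of all genes rose and 5.92% fell. They were the chromatin remodeller Smarca4 (-0.40 ± 0.10) and the corepressor Ctbp1 (-0.25 ± 0.08). In saline males 2 were lower in knockouts, at a background of 4.16%, Smarca4 (-0.57 ± 0.13) and the PRDM16 paralogue Mecom (-0.56 ± 0.17).

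Among 24 tested brown and beige regulators outside the members, 3 rose and 1 fell with CL in wild-type males, beside the same 5.35% and 5.92% of all genes. The risers were Ppara, a nuclear receptor of fatty acid oxidation (1.36 ± 0.23), the coactivator Ppargc1b (0.84 ± 0.17) and Id1 (0.74 ± 0.19), and the corepressor Nrip1 fell (-0.64 ± 0.20). Of 36 other adipogenic transcription factors, 1 rose and 5 fell against the same shares, with Mlxipl, the carbohydrate response factor, higher (0.86 ± 0.19) and Creb3l1 (-0.99 ± 0.20) and Ddit3 (-0.74 ± 0.15) lower. On average over groups 2 rose and 10 fell with CL, at backgrounds of 10.4% and 14.7%, including Klf4, an early adipogenic factor, lower (-0.88 ± 0.15), and Srebf1, a lipogenic factor, higher (0.64 ± 0.14). Pparg, the nuclear receptor at the centre of adipogenesis, was lower in females than males (-0.51 ± 0.09, adjusted p = 0.00033), as its partner Rxra was (-0.38 ± 0.08).

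The relatives of the members moved in their own ways. Of 10 C/EBP family relatives, 3 rose and 2 fell with CL in wild-type males (5.35% and 5.92% of all genes). Among them were the clock output factors Dbp (3.06 ± 0.25) and Tef (1.33 ± 0.25), and Nfil3 (-1.18 ± 0.27). None of the 8 interferon regulatory factor relatives of Irf4, the 8 PRDM relatives or the 6 genes listed with TLE passed in that comparison. The TLE list includes Hes1, which is not a TLE gene. The IRF, PRDM and TLE genes with the smallest p there were Irf2 (0.34 ± 0.14, adjusted p = 0.13), Prdm2 (-0.23 ± 0.15, 0.4) and Tle6 (0.54 ± 0.18, 0.062). On average over groups Irf9 and Irf7 were higher in females, by 0.39 ± 0.13 and 0.72 ± 0.24.

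The likeness of patterns was described over the 24 libraries of the first table, whose genes share each library's unknown depth, its scaling and its cell mix, so the coefficients carry no test. The cell mix varied among them, with the mean log2(FPKM + 1) of 15 skeletal muscle genes running from 0.83 to 11.38. Among the members, Prdm16 and Zfp423 were most alike (Pearson r = 0.859), followed by Ebf1 and Zfp423 (0.787), Cebpa and Zfp423 (0.776) and Ebf2 and Zfp516 (0.756). The lowest values belonged to Ebf2 and Cebpb (-0.634) and to Prdm16 and Irf4 (-0.553). Of 11975 genes compared, the pattern of Prdm16 was nearest to Smarcc2 (0.908), Plxnd1 (0.905) and Iqsec1 (0.901). Ebf1 was nearest to Ffar2 (0.965), Tshr (0.96) and Slc7a8 (0.951), Zfp423 to Plin4 (0.957) and Cebpa to Plin1 (0.923). Ebf2 was nearest to Sestd1 (0.946) and Sdc2 (0.93), Zfp516 to Nt5dc3 (0.923), Irf4 to St3gal1 (0.896) and Tle3 to Sesn2 (0.886). Cebpb and Cebpd had the weakest nearest genes, Shb (0.803) and Plekhf1 (0.819).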

How the data were processed

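Reads were sequenced on a DNBSEQ instrument from RNA of frozen tissue, and alignment tool and genome are HISAT2 2.0.4 and GRCm38/mm10 per the submitters' processing notes. The sources used here do not give the program behind the deposited FPKM values or its use of strand, so lncRNAs overlapping Prdm16, Ebf2, Zfp516 and Zfp423, and Spidr over Cebpd, could share reads with them. FPKM gives no counts, so depth is unknown. Summed FPKM ran from 563255 to 707161 per library. The 2 tables (24 and 5 columns) are separate, and how each was made is not known here. Columns of a repeated name were averaged on the log2 scale as 1 mouse, in group means on the FPKM scale. Records of 2 samples, both in groups with a repeated name, have no column of their own.

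The 13174 genes that reached 1 FPKM in 3 mice or more were fitted as log2(FPKM + 1) with limma 3.58.1 (R 4.3.3, trend=TRUE, two-sided), with 8 group means and the table as covariate, 18 residual and 2.92 prior degrees of freedom. There were 18 comparisons, and 3 averages were added. The fit was tested on simulated data with independent normal noise, few changed genes and no table effect, so its rates may not hold for the real data. It called 38% of log2 changes of 0.5 and 84% of changes of 1 between CL and saline wild-type males, and 10% and 52% between the wild-type female groups. The 10 members and all lists were chosen with earlier results of these data known. Named genes were the members, Ncoa1, Ucp1, up to 4 genes per list with the smallest p, and up to 3 genes most like each member. Cd79a, Pax5 and Csn2 were chosen after their values were seen.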

Additional observations from a re-analysis of the deposited data

Results flagged for a closer look

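In groups of 4 mice, 4 of 40 combinations of gene and group held 1 mouse far from the other 3, and chance gives about 1 in 20. Prdm16 was 2.1 FPKM in CL wild-type male 2, with the nearest of the other 3 mice at 1.85. Ebf1 was 18.39 in CL knockout male 4 (nearest 26.33) and 19.72 in CL wild-type male 4 (nearest 27.39), and both of these mice were high in skeletal muscle genes. Tle3 was 12.29 in CL wild-type female 2 (nearest 16.99). Whether muscle RNA bears on the low Ebf1 of the 2 males was not tested.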

How the results depend on the processing

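Up to 37 alternatives were run for each comparison, 27 of which left out 1 mouse each, and no call changed direction in any of them. Of the 23 calls of a single gene, 8 held in every alternative, namely Ebf1 with CL in wild-type males and on average, Cebpb on average by genotype, and the 5 average sex differences. Some alternatives leave 1 saline wild-type female, which limits what they say about the averages. Prdm16 and Zfp516 lie at a few FPKM, where the added 1 shrinks differences, and unknown depth sets no floor for them.

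Counts of members past the test moved as follows, and counts of all genes past moved too. In the main fit 955, 469 and 978 of 13174 genes passed for CL in knockout males, wild-type females and knockout females. For genotype in saline females 67 passed, and for sex in saline knockouts 1024. Higher and lower genes numbered 1365 and 1930 for average CL and 419 and 548 for genotype in saline males. For sex in CL knockouts they numbered 1110 and 341. Member counts without the table covariate were 2 for CL in knockout males, 3 in wild-type females and 1 in knockout females. They were 1 for genotype in saline females, 1 for sex in saline knockouts and 5 for the average CL effect. Of 13174 genes, 1580, 1551, 1035, 128, 1055 and 4879 passed in the same order. With the first table alone member counts were 0 for genotype in saline males and 1 for sex in saline knockouts. Of 13111 genes, 202 and 665 passed there. That setting leaves 1 saline wild-type female, so counts that use her group are left out here. With each column as a mouse member counts were 2 for CL in knockout males and 3 in wild-type females. They were 1 for genotype in saline males and 1 for sex in saline knockouts. Of 13229 genes, 1400, 2080, 659 and 1236 passed in the same order. Without mice high in muscle genes member counts were 1 for CL in wild-type females, 1 in knockout females and 1 on average. They were 0 for genotype in saline males, 2 for sex in CL wild types and 2 in CL knockouts. Of 12985 genes, 577, 411, 1991, 340, 3047 and 1207 passed in the same order. With only the groups compared member counts were 0 for genotype in saline males and 2 for sex in CL knockouts. Quantile normalization gave 1 for genotype in saline males. All genes past numbered 269, 1304 and 932 of 13174 in the same order. Scaling columns to the same sum gave 5 members (Prdm16, Ebf2, Zfp516, Ebf1 and Zfp423) lower in CL wild-type females than males, where it also moved the median of all genes from -0.08 to -0.24, and 4405 genes passed in place of 1029 higher and 1330 lower. In each of these the cause was not tested.

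Leaving out 1 mouse gave 1 to 4 members for CL in wild-type males, 0 to 1 in knockout males, 0 to 2 in wild-type females, 0 to 2 in knockout females and 1 to 5 on average. It gave 0 to 2 for genotype in saline males, 0 to 4 in CL females and 2 to 6 on average, and for sex 0 to 3 in CL wild types, 0 to 1 in saline knockouts and 0 to 2 in CL knockouts. Sex by treatment in knockouts and sex by genotype under CL gave 0 to 1. Shares of all genes past were not kept for these fits, so the ranges cannot be read as particular to the members.

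Replicate numbers did not pair the mice, since 5 of 27 correlated best with their own number. With the replicate block the number of members past the test stayed within 1.5 times the main number, and Ebf2 lost its call in CL females (0.67, adjusted p = 0.068). Prdm16 also lost its CL call in wild-type males with a pseudocount of 0.1 (adjusted p = 0.072), each column as a mouse (0.066) and equal sums (0.055), and its genotype call in saline males with each column as a mouse (0.061), quantile normalization (0.069) and only the groups compared (0.088). Tle3 lost its genotype call in saline males with only the groups compared (0.17), and Ebf2 lost its call in CL females with quantile normalization (0.097) and only the groups compared (0.2).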
